A study of Mus musculus with 1920 samples.

Results

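The 10 genes described here are 7 immediate early genes (Fos, Fosb, Jun, Junb, Egr1, Atf3 and Ier2) and 3 heat shock genes (Hspa1a, Hspa1b and Dnajb1), 10 of the 55471 gene identifiers in the table. They were followed in single intestinal stem cells (ISCs), which sit at the base of the crypt and renew the epithelium, sorted as Lgr5high cells from 3 young and 4 aged mice. All 7 mice carried the allele labelled B6.129P2-Lgr5tm1(cre/ERT2)Cle/J, in which a green fluorescent reporter and an inducible Cre are expressed from the Lgr5 locus, so sorting relies on this reporter and a cell in which it is silent is not collected. The labels give age only as young or old, no treatment and no sex. RNA was read with a Smart-seq2 method, which copies full-length cDNA of each cell without molecular identifiers. Of 1920 cells, 1836 in which 1000 or more genes had a read are described, 160 to 376 per mouse, with a median of 305492 reads per cell.

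Immediate early genes are transcribed within minutes of a growth factor, calcium or stress signal, without new protein synthesis. Serum response factor with its ERK-activated partners and the cAMP response element binding protein (CREB) act at their promoters, and most of their transcripts are short lived. Heat shock genes are driven by heat shock factor 1 when unfolded proteins accumulate, and their products are chaperones that refold proteins. In epithelium that is taken apart into single cells, both groups are known to respond also to the handling of the tissue. These mice gave crypt cells only after chemical, enzymatic and mechanical dissociation and cell sorting, and no undissociated tissue was measured, so a level in the crypt and a response to handling cannot be told apart.

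The sort was checked with Lgr5, the receptor that marks ISCs. Lgr5 reads were present in 93.1% to 99.5% of the kept cells of each mouse, at 335, 443 and 454 CPM (reads of the gene per 1000000 reads on genes) in young mice 1, 2 and 3 and at 363, 310, 172 and 324 CPM in aged mice 1 to 4. The 18 genes of an ISC marker list led over 7 lists of other cell types in 1551 of the 1836 cells. The other 285 cells were led by markers of Paneth cells (134 cells), enterocytes (76), goblet cells (53) or tuft, enteroendocrine or stromal cells (22 in all). Summed immune markers (8 genes) stayed between 0.483 and 3.98 CPM in every mouse. Each cell name ends in a code that 384 cells share, which is the number the methods load on a sequencing lane, and it is called the lane code here. Of the 5 lane codes, 3 hold cells of 1 young and 1 aged mouse, and the other 2 hold young mouse 3 alone and aged mouse 4 alone.

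Fos is the gene by which cells are compared here, and Atf3 is the immediate early gene with the widest range between mice. Hspa1a and Hspa1b are nearly alike upstream. The sequences upstream of these 4 members are shown. Each is the 250 bases before the start of transcription in RefSeq (GRCm38.p6), read 5′ to 3′ on the gene's strand. Fos lies on the plus strand, at chr12:85473640-85473889, and the others on the minus strand, at chr1:191183334-191183583 (Atf3), chr17:34972157-34972406 (Hspa1a) and chr17:34959239-34959488 (Hspa1b). Capitals mark TGACG on either strand (5 bases of the CREB element), TATAAA on the gene's strand, or GAANNTTC (2 inverted units of the heat shock element).
Fos: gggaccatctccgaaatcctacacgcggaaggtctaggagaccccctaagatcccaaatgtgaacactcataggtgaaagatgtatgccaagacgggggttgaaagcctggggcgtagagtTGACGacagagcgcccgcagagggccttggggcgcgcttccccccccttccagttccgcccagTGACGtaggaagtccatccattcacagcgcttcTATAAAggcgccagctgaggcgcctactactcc
Atf3: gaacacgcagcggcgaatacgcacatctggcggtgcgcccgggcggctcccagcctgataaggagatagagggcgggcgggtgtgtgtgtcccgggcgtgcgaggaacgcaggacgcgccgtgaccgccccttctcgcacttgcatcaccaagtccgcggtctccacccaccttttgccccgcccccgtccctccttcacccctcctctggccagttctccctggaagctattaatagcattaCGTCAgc
Hspa1a: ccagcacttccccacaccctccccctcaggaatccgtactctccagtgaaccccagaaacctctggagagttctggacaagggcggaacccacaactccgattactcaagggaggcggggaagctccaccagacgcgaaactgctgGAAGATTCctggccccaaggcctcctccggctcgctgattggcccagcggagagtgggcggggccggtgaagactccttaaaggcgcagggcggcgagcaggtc
Hspa1b: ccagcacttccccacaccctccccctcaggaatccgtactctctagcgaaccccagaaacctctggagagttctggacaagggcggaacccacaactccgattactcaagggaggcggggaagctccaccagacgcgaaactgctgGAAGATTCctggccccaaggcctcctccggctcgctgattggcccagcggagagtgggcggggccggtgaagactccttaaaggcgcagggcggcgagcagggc

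Fos holds TGACG at -129 and -66 and TATAAA at -33 from its start, and Atf3 holds the reverse complement of TGACG at -7. The same window of Fosb, of Junb and of the heat shock gene Dnajb1 (at -11) holds TGACG as well. Another RefSeq start of Dnajb1 has none of the marked motifs in its window. The window shown for Atf3 lies within the annotated span of the gene, before an internal start. TGACG is present in the windows of 17.8% of 32851 promoters. TATAAA is present in 7.59% of those windows. GAANNTTC stands at -104 in both Hspa1a and Hspa1b, is found in Jun at -128, and is present in 6.69% of the windows. The windows of Hspa1a and Hspa1b match at 247 of 250 bases, and differ by C44T, T47C and T249G, written as the base of Hspa1a, its position from the first base shown, and the base of Hspa1b. Their transcripts are alike too, since 58.8% of all 50-base words of Hspa1a occur in Hspa1b and 62.3% of those of Hspa1b occur in Hspa1a. How the authors' counting divided such reads is not stated, so values of either gene are uncertain. In addition, 75.0% of the length of Hspa1a is overlapped by Gm20481 and 21.6% of Jun by Junos, both on the opposite strand, and Junb and Prdx2 share 351 bases. Reads in these stretches cannot be assigned to one partner from these counts, and the strand setting of the counting is not stated.

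Fos, the partner of Jun in the AP-1 transcription factor, was among the most abundant members and varied 3.7-fold between mice. It measured 503, 690 and 195 CPM in young mice 1, 2 and 3 and 523, 723, 435 and 400 CPM in aged mice 1 to 4. Young mouse 3 was the lowest and aged mouse 2 the highest, and the remaining young mice lay within the range of the aged mice. Atf3, a stress-induced repressor of the ATF family, varied 5.98-fold. It measured 33.9, 124 and 28.5 CPM in the young and 53.8, 97.3, 20.6 and 53.3 CPM in the aged mice, so that the highest and the lowest value belonged to young mouse 2 and aged mouse 3. Egr1, a zinc finger factor induced through ERK signaling, measured 154, 316 and 154 CPM in the young and 181, 256, 125 and 242 CPM in the aged mice, with the same 2 mice at the ends. Fosb, a paralog of Fos, ranged from 18.4 to 82.8 CPM and Junb, a less active paralog of Jun, from 70.7 to 166 CPM. Jun itself (463 to 829 CPM) and Ier2, a small nuclear protein of early response genes (172 to 341 CPM), varied least among the 7, by 1.79-fold and 1.98-fold.

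The inducible HSP70 genes were far lower and differed most between mice. Hspa1a measured 5.50, 2.28 and 0.468 CPM in young mice 1, 2 and 3 and 6.72, 11.0, 2.81 and 0.266 CPM in aged mice 1 to 4. Hspa1b measured 5.02, 2.54 and 1.07 CPM in the young and 4.78, 16.0, 3.96 and 1.20 CPM in the aged mice. For both genes aged mouse 2 was highest, and young mouse 3 and aged mouse 4, the mice that filled a lane code alone, were lowest. Hspa1a rested on 35 to 667 reads per mouse. Dnajb1, the HSP40 cochaperone that hands clients to HSP70, was steadier, at 85.2, 99.2 and 59.9 CPM in the young and 114, 139, 110 and 85.2 CPM in the aged mice. Per kilobase of exon, the scale on which genes can be compared, the median level over mice was 215 CPM for Jun, 214 for Fos and 165 for Ier2. It was 46.9 for Junb, 40.4 for Egr1, 30.9 for Dnajb1, 24.8 for Atf3 and 6.82 for Fosb. Hspa1b (1.41) and Hspa1a (0.947) were lowest. Neighbors in this order overlapped in their mouse ranges, except Ier2 (113 to 224) and Junb (30.7 to 72.2). These ranges were 145 to 260 for Jun, 83.1 to 308 for Fos and 27.8 to 70.6 for Egr1. Lower in the order they were 18.7 to 43.4 (Dnajb1), 9.58 to 57.3 (Atf3) and 2.95 to 13.3 (Fosb). For Hspa1b and Hspa1a they were 0.382 to 5.71 and 0.0898 to 3.71. Whether neighbors differ within mice was not tested.

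**Figure D1:**
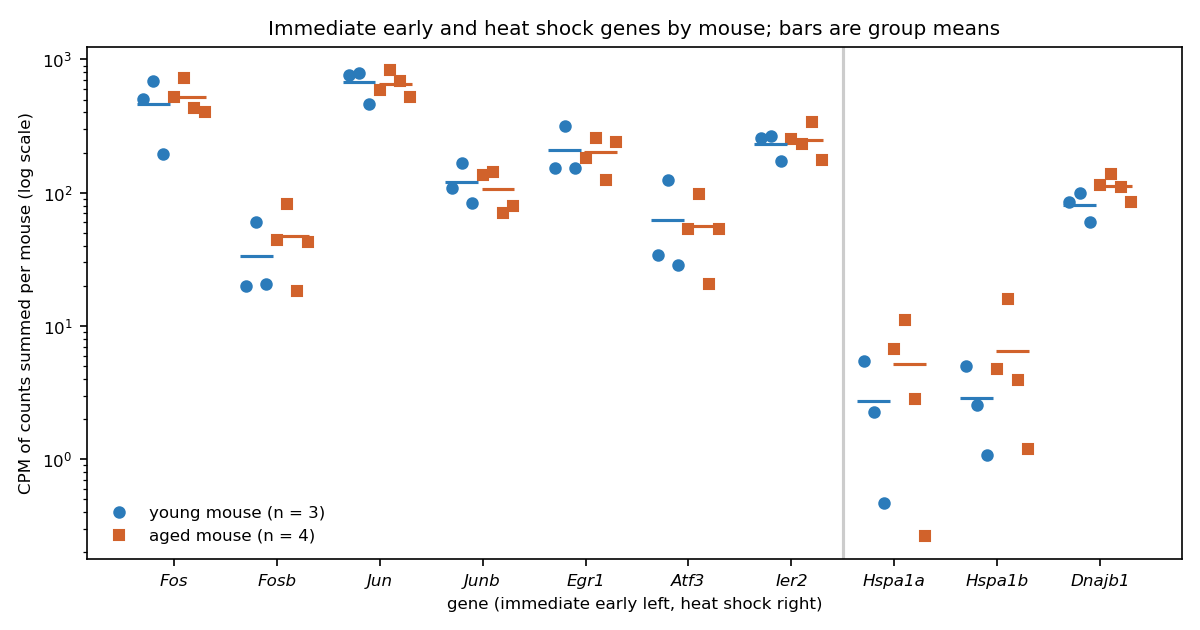
CPM of counts summed over the kept cells of each mouse (log axis) for the 10 genes, with circles for the 3 young and squares for the 4 aged mice and bars at the group means. The ages overlap for each of the 10 genes, and Hspa1a and Hspa1b spread most, over 41.4-fold and 14.9-fold between the lowest and the highest mouse.

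Whether age moved these genes was tested on counts summed per mouse, 3 young against 4 aged. None of the 10 members passed an adjusted p of 0.05 in edgeR, as did 0% of the 20957 genes tested. At an unadjusted p under 0.05 edgeR listed 1098 genes. At an adjusted p under 0.05 DESeq2 called 205 genes and limma voom 2, and neither of these tools called a member. Dnajb1 came nearest, at 81.4 ± 19.9 CPM in young and 112 ± 22.1 CPM in aged mice (SD, n = 3 and 4), with a log2 fold change of 0.52 (SE 0.21). In edgeR its unadjusted p was 0.035 and its adjusted p 0.90. Hspa1b (2.87 ± 1.99 against 6.49 ± 6.52 CPM, log2 fold change 1.21, SE 0.80) and Hspa1a (2.75 ± 2.55 against 5.20 ± 4.70 CPM, log2 fold change 0.95, SE 1.04) had larger estimates with wider errors, which turned on single mice. Without aged mouse 2 they were 0.25 (Hspa1b) and 0.28 (Hspa1a), and without young mouse 1 they were 1.92 and 2.00. Of the immediate early members, Fos had a log2 fold change of 0.23 (SE 0.37), Fosb of 0.55 (SE 0.50, 0.14 without aged mouse 2 and 1.23 without young mouse 2) and Ier2 of 0.17 (SE 0.24). Jun (0.02, SE 0.23), Egr1 (0.02, SE 0.31), Atf3 (-0.06, SE 0.56) and Junb (-0.10, SE 0.29) were closest to 0. No member separated the young from the aged mice without overlap, where 5.92% of all genes did. The share of ISC-marker-led cells ran from 86.3% to 93.5% in young and from 74.0% to 88.9% in aged mice, and its part in these values was not tested beyond a fit on ISC-marker-led cells alone, in which no member was called either.

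The spread between mice of the same age was wide for most members. On the log2 scale the SD within age was 0.99 for Atf3, 0.87 for Fosb, 0.64 for Fos, 0.51 for Egr1 and 0.48 for Junb, where the median of all genes was 0.42. Among genes within 0.5 log2 units of the same level, these SDs stood at the percentiles 99.6 (Atf3), 99.2 (Fosb), 96.0 (Fos), 91.5 (Egr1) and 91.6 (Junb). Hspa1a (SD 2.11) and Hspa1b (1.35) stood at 99.1 and 98.2 among genes as low as they are. Ier2 (0.36), Jun (0.34) and Dnajb1 (0.30) stood at 78.3, 68.4 and 71.0.

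In summed CPM, Fos and Fosb had like levels in the young and the aged mouse of a lane code and different levels between codes. The share of cells with a Fos read was less alike within codes. It was 87.0% in young mouse 2 and 70.4% in aged mouse 1, and 68.8% in young mouse 1 and 79.9% in aged mouse 3. In the code of young mouse 2 and aged mouse 2 it was 87.1% and 89.8%. In the lane code shared by young mouse 2 and aged mouse 2, Fos measured 773 and 723 CPM. In the code shared by young mouse 2 and aged mouse 1 it measured 590 and 523 CPM, and in the code of young mouse 1 and aged mouse 3 it measured 503 and 435 CPM. The young and the aged mouse of a code thus lay closer in Fos than sums of the same age from different codes of these 3. Fosb measured 68.7 and 82.8, 50.7 and 44.0, and 20.0 and 18.4 CPM in the same order. Atf3 measured 160 and 97.3, 80.1 and 53.8, and 33.9 and 20.6 CPM, so that the codes ranked alike within each age but the value was lower in the aged mouse of each code. Over these 6 sums of a mouse and a lane code, the share of the sum of squares of log2 CPM that lay between codes was 98.1% for Fosb, 95.2% for Fos, 89.7% for Atf3, 84.5% for Egr1 and 79.4% for Junb. It was 62.3% for Jun and 47.9% for Ier2. The median of 21277 genes was 49.7%, and 7.82% of them reached 90%. The share between the ages was 0.0718% to 14.9% for the 7 genes, where the median of all genes was 11.4%. The shares between codes were lower for the heat shock members, at 33.0% (Hspa1b), 17.7% (Dnajb1) and 9.58% (Hspa1a), and for Dnajb1 74.6% lay between the ages. These shares were computed after values by code had been seen and are descriptions with no test, and young mouse 2 gives 2 of the 6 sums.

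**Figure D2:**
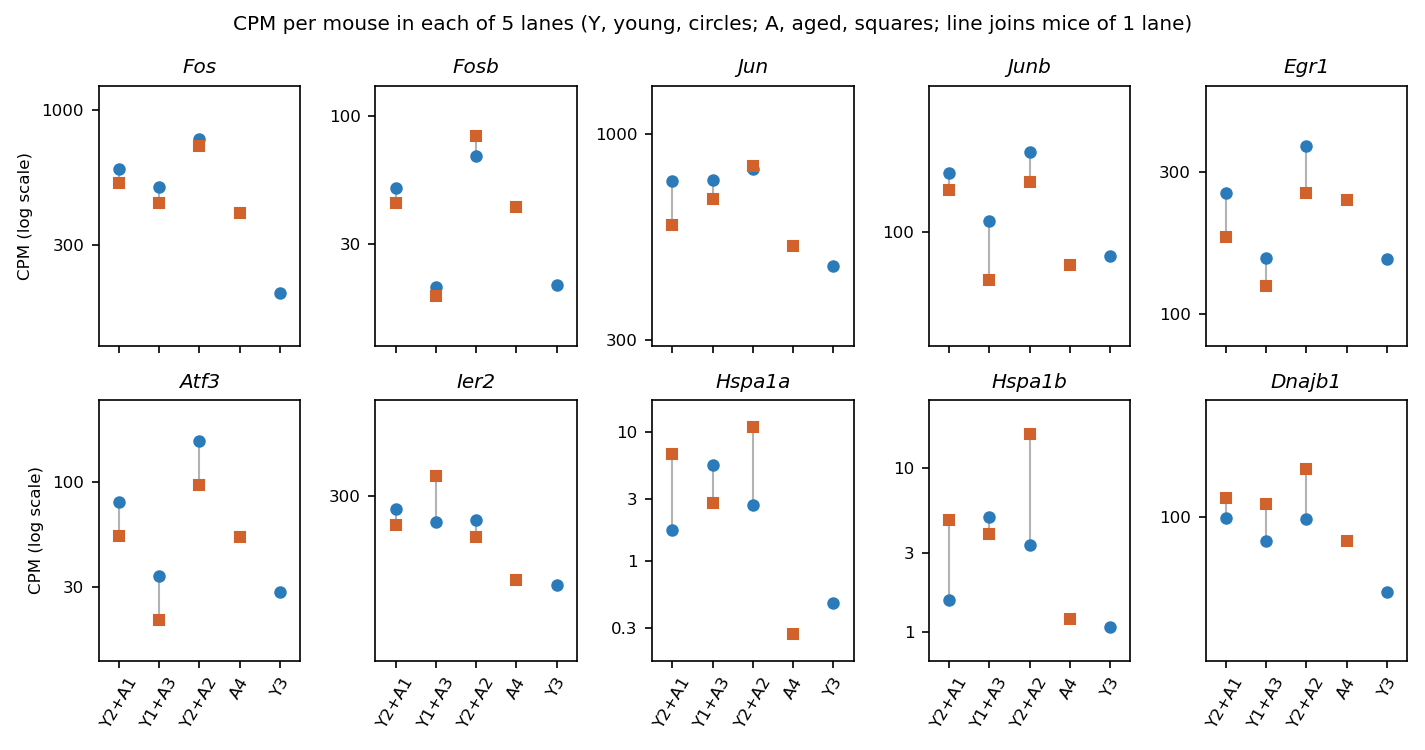
CPM (log axes) of each gene in each mouse and lane code, with Y for young (circles) and A for aged mice (squares) and a line joining the mice of 1 code. Fos and Fosb lie close within codes and differ between them, Atf3 is lower in the aged mouse of each shared code, and Hspa1a spans 1.74 to 11.0 CPM among mice of shared codes.

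The cells of young mouse 2 fall in 2 lane codes, with 184 and 186 kept cells. Atf3 was 80.1 CPM in the code shared with aged mouse 1 and 160 CPM in the code shared with aged mouse 2. This log2 difference of 1.01 within 1 animal stood at percentile 99.7 of 2354 genes of like level, whose median was 0.14. Egr1 (256 and 367 CPM, log2 difference 0.53) stood at 97.6, Fosb (0.44) at 92.1, Fos (0.40) at 90.8 and Junb (0.23) at 77.1. Jun (0.11) and Ier2 (0.09) stood at 33.8 and 33.2, and Dnajb1 differed by 0.01 (99.7 and 98.7 CPM). Hspa1b, at 1.56 and 3.36 CPM, had a log2 difference of 1.09 and stood at 95.0, and Hspa1a, at 1.74 and 2.73 CPM, differed by 0.64 and stood at 78.5, both among genes as low as they are. Between the 2 sets of cells the ISC-marker-led share was 92.9% and 94.1%, the summed Paneth markers were 10675 and 13104 CPM, and the median number of detected genes was 9331 and 9954. The labels do not say whether a lane code also marks a plate or a sort, so these cannot be told apart, and the part of depth was not tested.

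When the lane code was taken as a block, over the 3 codes with both ages, no member passed an adjusted p of 0.05, and 1 of all genes did. Within codes, Atf3 was lower in the aged mouse in 3 of 3, with a log2 fold change of -0.61 (SE 0.11). In edgeR its unadjusted p was 0.0016 and its adjusted p 0.47. Egr1 was also lower in 3 of 3 codes (-0.38, SE 0.09, edgeR adjusted p 0.54), as were Junb (-0.31, SE 0.13) and Fos (-0.10, SE 0.08). For Fos the log2 difference in the code of young mouse 2 and aged mouse 2 was only -0.0088. In the code of young mouse 1 and aged mouse 3, the mean Fos CPM over cells was higher in the aged mouse, at 345 and 369, unlike the summed value. Dnajb1 was higher in the aged mouse in 3 of 3 codes, at 0.41 (SE 0.11, edgeR adjusted p 0.55). Of all genes, 15.4% were lower and 15.3% higher in 3 of 3 codes. The 3 young sums come from 2 mice, so these p-values overstate the replication, and Fos, Jun and Egr1 had the opposite sign in the fit over all 7 mice.

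Among the cells of 1 mouse the differences were far larger than between mice. The share of the variance of log2(CPM + 1) over all cells that lay between mice was 8.19% for Fos, 7.94% for Fosb and 7.42% for Atf3 and 2.94% to 5.66% for the other immediate early members and Dnajb1. It was 9.81% for Hspa1b, the highest of the 10, and 5.97% for Hspa1a, where the median of 12561 genes with a read in at least 20% of cells was 1.31%. In young mouse 1 the median cell held 43.9 CPM of Fos, the top 10% of cells began at 871 CPM and the highest cell reached 6397 CPM. In aged mouse 2, the mouse with the most Fos, the median cell held 401 CPM and the top 10% began at 1866 CPM. Fos reads were present in 59.6% to 89.8% of the cells of each mouse, and Egr1 reads in 56.6% to 86.5%. Fosb (34.6% to 73.1%) and Atf3 (37.5% to 68.1%) were found in fewer cells, and Jun (94.7% to 100%) and Ier2 (92.1% to 98.1%) in nearly all. The 10% of cells with the most transcript held 52.1% of all Fos CPM (median of 7 mice, range 38.1% to 65.3%), 64.7% of Atf3, 57.0% of Fosb and 51.0% of Egr1. For Junb (38.2%), Jun (35.5%), Dnajb1 (34.1%) and Ier2 (30.9%) the transcript was spread over more cells. The coefficient of variation of Atf3, Egr1 and Fos stood at percentiles 97.6, 96.5 and 96.1 among genes of like mean in the same mouse (median of 7 mice).

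Hspa1a and Hspa1b were read in few cells at this depth. A read of Hspa1a was present in 24 of 160, 36 of 370 and 15 of 376 cells of young mice 1, 2 and 3, and in 21 of 189, 47 of 186, 17 of 189 and 5 of 366 cells of aged mice 1 to 4. Hspa1b was present in 8.74% to 21.2% of the cells of 6 mice and in 48.9% of the cells of aged mouse 2. With each cell thinned to 100000 reads, Hspa1a or Hspa1b was found in 49.2% of the cells of aged mouse 2 and in 5.57% to 21.0% of the cells of the other 6 mice. Dnajb1, in contrast, had a read in 81.4% to 91.9% of cells.

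Cells held the immediate early genes together. After thinning, 52.5% of the cells of aged mouse 2 and 47.4% of those of young mouse 2 had a read of all 7 members, against 19.3% in aged mouse 3 and 19.4% in young mouse 3. At the other end, 4.47% to 14.5% of cells had 2 or fewer members, and 3 of 1732 cells had none. Thinned cells with no Fos read (31 to 183 per mouse) held a median over mice of 8.97 CPM of Egr1 and 1.29 CPM of Atf3, and the 10% of cells with the most Fos held 823 and 284 CPM. Jun was present in both sets of cells, at 300.2 CPM without Fos and 1836 CPM in the top 10%, and so was Ier2 at 109 and 570 CPM. Dnajb1 measured 51.6 and 204 CPM and was higher in the cells rich in Fos in 7 of 7 mice. Hspa1a (0.862 and 1.71 CPM) was higher in 5 of 7 mice.

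**Figure D3:**
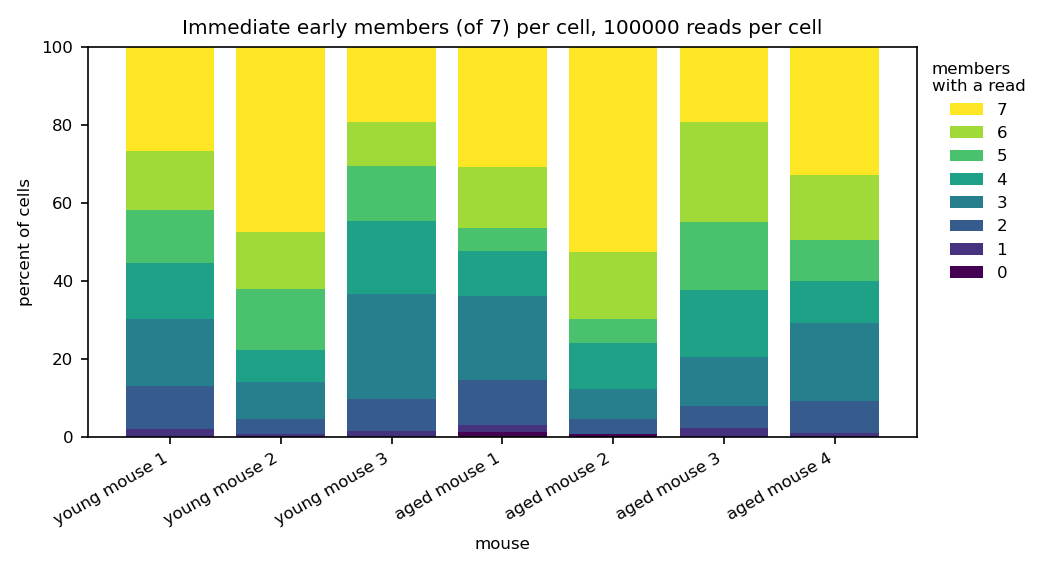
Share of cells (percent) of each mouse by the number of the 7 immediate early genes with a read, after thinning to 100000 reads per cell. All 7 were found in 52.5% of the cells of aged mouse 2 and in 19.3% of those of aged mouse 3.

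Correlations across cells were computed within each mouse, over 160 to 376 cells that come from 1 animal and differ in depth, and are given as descriptions. The cells of young mouse 2 pool 2 lane codes, and the part of this in the r of that mouse was not tested. The 21 pairs of immediate early genes had a median Pearson r of 0.53 (mean of 7 mice, range over pairs 0.38 to 0.81). Fos and Egr1 were closest (0.81, range over mice 0.72 to 0.90), followed by Fos and Fosb (0.73), and Ier2 and Atf3 were least alike (0.38). Among 12560 other genes ranked by their r with Fos, Egr1 was at rank 1, Fosb at 2, Atf3 at 4, Junb at 6, Jun at 10 and Ier2 at 15. Dnajb1 was at rank 23 (r = 0.34). The 3 pairs of heat shock genes had a median r of 0.13, and the highest was 0.28 for Hspa1a with Hspa1b, which share most of their sequence. Dnajb1 had a higher r with each of the 7 immediate early genes (0.28 to 0.39) than with Hspa1a (0.11) or Hspa1b (0.13). Counts of Hspa1a and Hspa1b are sparse, and the part of this in their low r was not tested. Thinning left the median of the immediate early pairs at 0.51, and within ISC-marker-led cells it was 0.56.

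**Figure D4:**
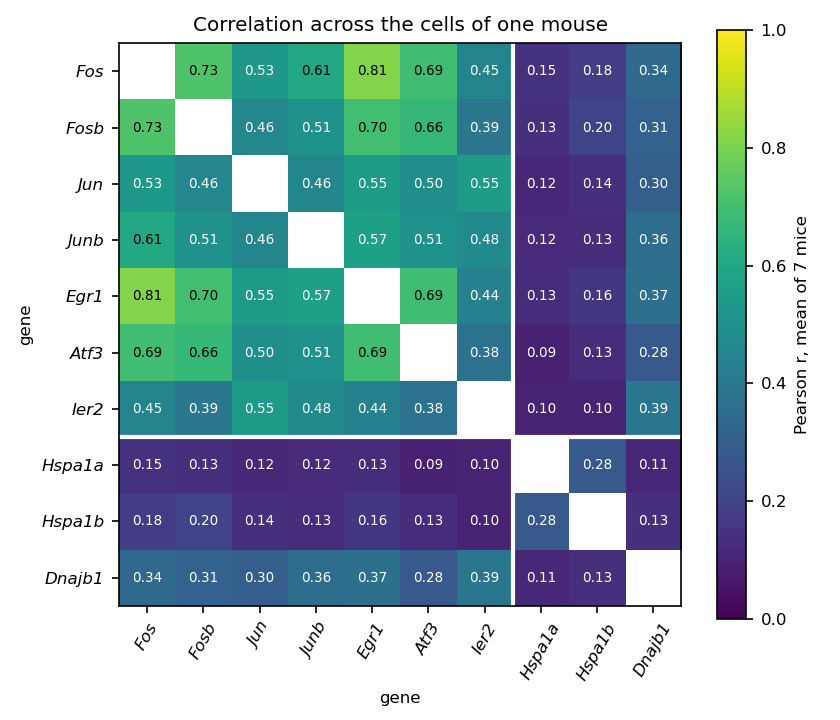
Pearson r of log2(CPM + 1) across the cells of a mouse, averaged over 7 mice, for the 45 pairs of genes (color scale 0 to 1, white lines between the 2 groups). The immediate early block lies at 0.38 to 0.81, and Dnajb1 sits at 0.28 to 0.39 with that block.

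The genes whose cell-to-cell pattern was most like the mean of the 7 immediate early genes were Dusp1 (r = 0.76), a phosphatase that switches off MAP kinases, Zfp36 (0.70), which speeds the decay of AU-rich transcripts, and Junos (0.64), the antisense gene at Jun. Hbegf (0.63), a ligand of the EGF receptor, Nr4a1 (0.61), Btg2 (0.60), Egr2 (0.59) and Ppp1r15a (0.59), which ends the eIF2α stress block of translation, came next. Jun and Junos overlap on opposite strands, so reads of their shared stretch may count for either gene. Only 1% of genes exceeded an r of 0.21. For the mean of the heat shock genes the values were lower, led by Dusp1 (0.30), Sfn (0.29), Hnrnpab (0.28), Zfp36 (0.28), Junos (0.28), Tuba1c (0.28), Hsp90aa1 (0.28) and Fam166a (0.28), with 1% of genes above 0.23. With the number of detected genes of a cell, Dnajb1 had an r of 0.42 and Ier2 of 0.38, and Fos (0.13), Egr1 (0.13) and Atf3 (0.12) had lower values. Dnajb1 also had an r of 0.27 with the summed score of 16 genes of G2 and mitosis, where Fos had 0.08.

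Whether the members differed between kinds of sorted cells was tested within mice, between ISC-marker-led cells and cells led by another list. Fosb and Atf3 were higher and Hspa1a was lower in the cells led by other markers, 3 of 10 members, where 16.3% of 21527 genes were called. Fosb measured 40.3 ± 25.3 CPM in ISC-marker-led and 51.2 ± 24.8 CPM in other cells (SD, n = 7 mice) and was higher in other cells in 5 of 7 mice, with a log2 fold change of 0.89 (SE 0.21, edgeR adjusted p 0.011). Atf3 measured 57.7 ± 39.3 and 71.2 ± 33.9 CPM and was higher in 6 of 7 mice (0.86, SE 0.15, edgeR adjusted p 0.0016). Hspa1a measured 4.41 ± 3.92 and 1.99 ± 3.82 CPM and was higher in other cells in 0 of 7 mice (-1.75, SE 0.47, edgeR adjusted p 0.025). In 4 mice the Hspa1a value of the other cells rested on 1 to 3 reads, and the call was lost when young mouse 1, young mouse 2, aged mouse 3 or aged mouse 4 was left out (edgeR adjusted p 0.056 to 0.069). Hspa1b had a log2 fold change of -0.90 (SE 0.28, edgeR adjusted p 0.050024). Fos (0.25, SE 0.16), Egr1 (0.19, SE 0.14), Junb (0.04, SE 0.14), Jun (-0.19, SE 0.11), Ier2 (-0.21, SE 0.12) and Dnajb1 (-0.24, SE 0.12) did not pass.

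These calls depended on the scaling. With library size in place of TMM factors, the median log2 fold change of all genes moved from -0.12 to -0.55, and Jun (-0.63), Ier2 (-0.64), Dnajb1 (-0.67), Hspa1a and Hspa1b (-1.32) were lower past the threshold. Fosb (0.46) and Atf3 (0.42) then had edgeR adjusted p of 0.082 and 0.058, and Fos, Egr1 and Junb changed sign. Since the scaling moves all genes by about the same amount, these sign changes and calls follow the shift of the median. Among cells led by Paneth markers alone, Atf3 measured 89.4 ± 34.7 CPM and Fosb 60.3 ± 24.7 CPM (SD, n = 7 mice). Cells led by enterocyte markers held 22.5 ± 29.2 CPM of Atf3 and 23.2 ± 12.8 CPM of Fosb (n = 5 mice with at least 5 such cells). The other cells had a median of 173934 to 265353 reads per mouse and the ISC-marker-led cells of 211790 to 379662 reads, and the part of this depth was not tested beyond the thinned fit, in which Fosb and Atf3 were called and Hspa1a was not (edgeR adjusted p 0.16).

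**Figure D5:**
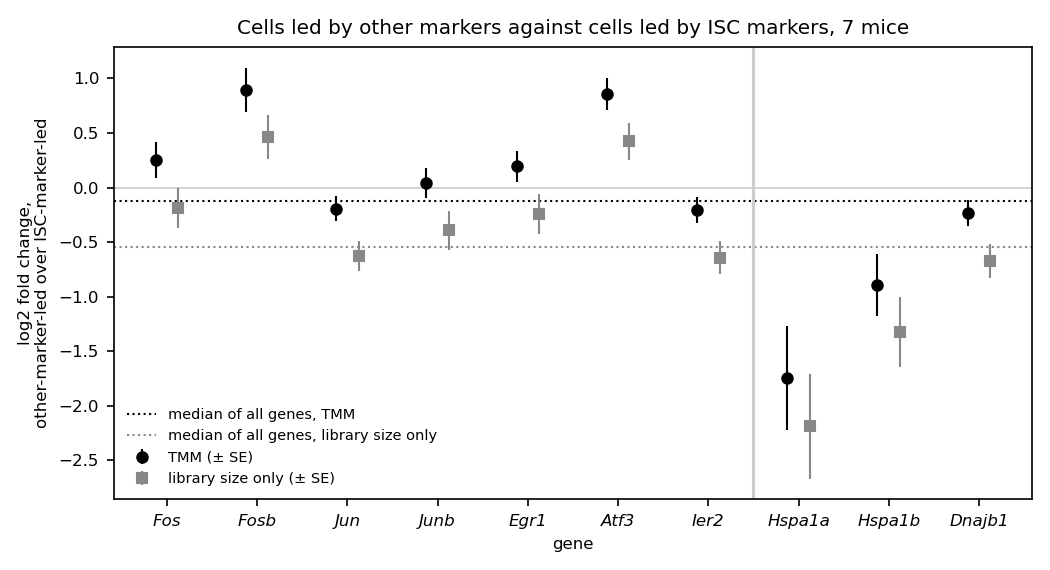
Log2 fold change (± SE, 7 mice) of cells led by other markers over ISC-marker-led cells, with TMM factors (black circles) and with library size only (grey squares), and dotted lines at the median of all genes. The median lies at -0.12 with TMM factors and at -0.55 with library size, and all 10 genes shift down with it, so that Fos, Junb and Egr1 cross 0.

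The wider pathways were read from 3 lists of other genes. Of 49 tested genes of the early response, 34 heat shock factor targets and cochaperones and 22 upstream kinases and transcription factors, none passed an adjusted p of 0.05 between aged and young mice in edgeR, with 2, 2 and 0 genes at an unadjusted p under 0.05, and their median log2 fold changes were 0.02, 0.21 and -0.06, against 0.01 for all genes. Dusp1 measured 103 ± 47.7 CPM in young and 141 ± 52.6 CPM in aged mice, and Hsp90aa1, the stress-induced HSP90, 277 ± 52.8 and 340 ± 49.5 CPM (SD, n = 3 and 4). Hspb1, the small heat shock protein HSP27, was almost absent, at 0 to 1.19 CPM in each mouse. Zfp36 (49.6 to 103 CPM), Klf6 (71.1 to 115 CPM) and Hsf1, the factor that drives the heat shock genes (32.7 to 43.9 CPM), also overlapped between the ages.

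Between the kinds of cell, 7 early response genes were higher and 3 lower in cells led by other markers, with a median of the list of 0.04 against -0.12 for all genes. Of all genes 8.76% were higher and 7.57% lower, so the 10 of 49 called here are near the background of 16.3%. Klf4 (log2 fold change 3.19, SE 0.23), a factor of differentiating goblet and villus cells, and Gadd45g (2.56, SE 0.23), a stress sensor, rose most, followed by Dusp6 (1.87, SE 0.39), Dusp5 (1.40, SE 0.43), Btg2 (0.54), Mcl1 (0.49) and Klf6 (0.48). Myc (-0.96, SE 0.10), which drives growth of crypt cells, Nr4a3 (-1.70, SE 0.53) and Ccn1 (-0.83, SE 0.20) fell. Of the heat shock list 1 gene was higher, Hspb8 (3.99, SE 1.05), and 10 of 34 were lower, with a list median of -0.20. The lower genes were the chaperones Hspa9 (-0.58), Hspd1 (-0.55), Hsph1 (-0.48), Hsp90ab1 (-0.45) and Hspa8 (-0.43), the cochaperones Ptges3 (-0.52), Fkbp4 (-0.46), Ahsa1 (-0.42) and Cacybp (-0.41), and the HSP60 partner Hspe1 (-0.39, named after its value was seen), each with an edgeR adjusted p under 0.05. These genes serve constitutive folding as well as heat shock. Of the upstream genes, Mapk3, the kinase ERK1, was higher (0.66, SE 0.12) and Mrtfb, a partner of serum response factor, lower (-0.69, SE 0.16). These counts moved with the scaling as well. With library size only, 3 early response genes were higher and 14 lower, 2 of the heat shock list were higher and 24 lower, and 0 upstream genes were higher and 10 lower. Of all genes 39.0% were then called, 6.09% higher and 32.9% lower, and the counts of 49, 34 and 22 genes are to be read against these shares. Dusp5, Btg2, Mcl1, Klf6 and Mapk3 then no longer passed (edgeR adjusted p 0.10 to 0.84), and no gene called with TMM factors changed sign.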

How the data were processed

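Per the labels and the methods, single Lgr5high cells of 3 young and 4 aged mice were sorted, single-end reads were aligned with HISAT2 to GRCm38 and counted with HTSeq, and the authors deposited a table of raw, unscaled counts of each gene in each cell. Its annotation and strand setting were not given in the sources used here. Identifiers were matched to GENCODE M21 (55230 of 55471; the other 241 held 0.00278% of counts), and RefSeq promoters to 8 of 10 members. Column names were matched to the cell names in the sample titles, and the sample labels gave the mouse of each cell. The 84 cells below 1000 detected genes were dropped, and counts were summed per mouse (49447464 to 134408884 reads). Reads carry no molecular identifiers, so depth limits counting error and not amplification error. Doublets were not called.

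The sums were compared in edgeR 4.0.16 (quasi-likelihood test after TMM and filterByExpr, Benjamini-Hochberg over all genes tested, threshold 0.05) in R 4.3.3, with mouse as a block between kinds of cell. A cell was ISC-marker-led where the mean log2(CPM + 1) of the ISC list exceeded that of 7 other lists. DESeq2 1.42.0 and limma 3.58.1 (voom) were alternatives, as were other filters, scalings, thinning to 100000 reads per cell and each mouse left out. Python 3.11.15 with numpy 2.4.6 served for descriptions. The edgeR fits were also run on simulated data with a single fixed dispersion, below that of every member except Dnajb1. That run therefore does not speak to the power for the members. That the mice of a group are separate animals is stated. Differences between ages were judged against the spread between mice, and those between kinds of cell against the spread of differences within mice. In the lane block the 3 young sums come from 2 mice.

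The members and the gene lists were chosen with earlier results of these data known. The genes named are the members, Lgr5, the 8 genes most like each group across cells, up to 10 called genes of each list with the largest fold change, and Dusp1, Zfp36, Klf4, Klf6, Myc, Hspa8, Hsp90aa1, Hsph1, Hspb1 and Hsf1. Hspe1, overlapping genes and the sequences shown were chosen after values were seen.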

Additional observations from a re-analysis of the deposited data

Results flagged for a closer look

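Each group of 4 aged or 7 mice was examined for a value far from the others, over levels, shares of cells with a read and ratios between kinds of cell of the 10 members, and 2 of 30 groups held such a value, where chance gives about 1 in 20. Fosb reads were present in 73.1% of the cells of aged mouse 2, against 47.1% to 50.3% in the other aged mice. Ier2 reads were present in 92.1% of the cells of aged mouse 1, against 97.4% to 98.1% in the other aged mice. Aged mouse 1 had a median of 246615 reads per cell, the lowest of the aged mice. With each cell thinned to 100000 reads, Ier2 reads were present in 95.2% of the cells of aged mouse 1. The other aged mice then had 98.2% to 98.9%. Whether the thinned value of aged mouse 1 still counts as far from the others was not tested.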

How the results depend on the processing

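No member passed the threshold between aged and young mice under any of 19 alternatives. Over all genes, against 0 in edgeR, DESeq2 called 205, limma voom 2, no filter on low counts 22, thinned cells 16, the mean CPM over cells 12, the replicate block 2 and the lane block 1, and leaving out a mouse gave 0 to 8. Of 190 recomputed fold changes, 24 changed sign. With library size only they were Jun (-0.039) and Egr1 (-0.050), with thinned cells Junb (0.053) and Atf3 (0.014), with the mean CPM Jun (-0.059) and Atf3 (0.095), with the lane block Fos (-0.10), Jun (-0.11) and Egr1 (-0.38), and with the replicate block Egr1 (-0.088). The replicate numbers were taken only to name the mice. Mice of the same number deviated together with r = -0.16, 0.27 and -0.34 for the numbers 1, 2 and 3. The highest r of the young mouse with an aged mouse of another number was 0.47, 0.16 and 0.39. For number 2, whose mice share a lane code, r was thus highest with the same number. The replicate block changed no call of a member. Leaving out a mouse gave ranges of -0.13 to 0.59 for Fos, -0.19 to 0.14 for Jun, -0.29 to 0.17 for Junb, -0.15 to 0.41 for Egr1, -0.45 to 0.87 for Atf3 and -0.014 to 0.30 for Ier2. Fosb (0.14 to 1.23), Hspa1a (0.28 to 2.00), Hspa1b (0.25 to 1.92) and Dnajb1 (0.34 to 0.65) kept their sign in these alternatives.

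Between kinds of cell the members called were 3, and 5 with library size only, an alternative chosen after seeing the data. With that scaling Fos (-0.19), Junb (-0.39) and Egr1 (-0.24) changed sign and 8398 genes were called, against 3514. Junb also changed sign without a filter on low counts (-0.012) and ranged from -0.028 to 0.16 when a mouse was left out, and without aged mouse 4 the genes called were 2340. Hspa1b passed in DESeq2, limma voom, cells with at least 2500 genes and without aged mouse 4 (adjusted p 0.030, 0.042, 0.015 and 0.047), and Hspa1a failed in limma voom and thinned cells (0.13 and 0.16). The median SD of the 10 members between mice was 0.58, and 0.50 to 0.64 when a mouse was left out. The cause of these shifts was not tested. Hspa1a and Hspa1b have too few reads per cell to compare single cells.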
